A study of Mus musculus with 18 samples.

Results

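The insulin-like growth factor (IGF) system of the mouse hippocampus was described from 10 genes, found by symbol in all 18 count and FPKM files among 55291 gene symbols: the binding proteins Igfbp2, Igfbp3, Igfbp4, Igfbp5, Igfbp6 and Igfbp7, the ligands Igf1 and Igf2, and the receptors Igf1r and Igf2r. Igfbp2 was the gene that the study followed up, and the other 9 were placed beside it. RNA came from male wild-type C57BL/6J mice that all carried AAV-DJ-GfaABC1D-EGFP-Rpl10a, injected at 6 weeks of age into CA3 of the right hippocampus; the GfaABC1D promoter directs the tagged ribosomal protein to astrocytes. The AAV control group received this virus alone and was collected 2 weeks later. The KA group received 50 nL of 20 mM kainic acid, a glutamate receptor agonist used to model mesial temporal lobe epilepsy, in the right dentate gyrus 2 weeks after the virus and was collected 14 days after KA, so it also differed from the AAV control group in the time since the virus. The PBS group received phosphate-buffered saline in place of KA. Each group had 3 samples, each a pool of 3 to 4 right hippocampi, and each sample gave an IP library (RNA on ribosomes pulled down with an anti-GFP antibody) and an input library (RNA of the whole homogenate). All libraries are labelled as hippocampal astrocytes, but the input holds every hippocampal cell type.

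IGF1 and IGF2 are secreted growth factors that signal through IGF1R, a receptor tyrosine kinase upstream of PI3K and AKT, whereas IGF2R carries IGF2 to the lysosome. The IGF binding proteins are secreted carriers that hold the ligands in the extracellular space, lengthen their life or keep them from the receptor, until proteases release them; IGFBP7 binds IGFs weakly. In the adult brain, choroid plexus and meninges are the known sources of Igf2, microglia and some neurons make Igf1, and astrocytes and choroid plexus make Igfbp2.

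The 18 libraries held between 7991681 and 16032180 counts. Libraries #1 and #2 of the AAV control and KA groups were sequenced in run 1, libraries #3 of both groups in run 2 and all PBS libraries in run 3, so that run and PBS treatment cannot be told apart. The 10 astrocyte markers were all higher in IP than in input in each group, and their summed FPKM (fragments scaled to transcript length and library depth) was 5679 to 11040 in IP against 479 to 1268 in input. Their median log2 difference between IP and input was 3.10 in AAV control, 2.90 in PBS and 1.78 in KA, and 6 of 10 were lower DEGs of the KA effect in IP against input with either baseline. Within IP, Gja1, Slc1a2 and Slc1a3 were lower DEGs in KA than in AAV control and Gfap a higher one, with a list median of −0.74. Markers of other cells also moved with KA. Summed over 8 genes each, neuronal markers were at no more than 188 FPKM in control and PBS IP and at 227 to 302 in KA IP, interneuron markers at 275 to 609 and at 996 to 3375, and oligodendrocyte markers at 267 to 1156 and at 1373 to 2688. The interneuron list did not move as one. Of 7 tested, 5 were higher DEGs and 1 was a lower DEG against AAV control, and 3 and 1 against PBS. The lower one was Sst, at a mean of 169 FPKM in AAV control IP and 15.9 in KA IP (log2 fold change −3.36, adjusted p = 0.000133). Npy went from a mean of 76.1 to 1265 FPKM. Microglial markers (9 genes) were at 14.8 to 29.2 FPKM in control and PBS IP and at 62.0, 50.5 and 30.0 in KA IP #1, #2 and #3. In input they were at 116 to 255 and at 1422 to 2293 FPKM, and 8 of 8 tested were higher DEGs. No marker list had a gene at 0 in all libraries of a group.

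A gene entered edgeR's quasi-likelihood test of its counts if FPKM was above 1 in every compared library, and a differentially expressed gene (DEG) had an adjusted p under 0.05 and at least a 2-fold change. Adjusted p-values are Benjamini-Hochberg values over all genes tested. Of the 10 members, 7 passed this filter in IP, and 8 in comparisons within input and of IP with input in the KA group. Igfbp3 did not pass in IP because control libraries lay below 1 FPKM, so it was tested with edgeR's count-based filter (filterByExpr) there, and Igf1 and Igf2 passed in none. Nothing in the labels separates cultures or animals beyond the pools, so p-values measure the spread between the 3 pools of a group. For a single gene compared between 3 and 3 libraries, 0.1 is the smallest two-sided p of an exact permutation test.

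In the astrocyte-enriched IP, 3 of the 7 tested members were DEGs between KA and AAV control, all higher in KA (Igfbp2, Igfbp6 and Igfbp7), against 11.6% of the 9729 genes tested. Against PBS, 4 of 7 were DEGs, again all higher (Igfbp5 in addition), against 17.4% of 9847 genes. The 2 comparisons share the KA libraries. The tested members had a median of 0.74 (log2) against AAV control and 1.46 against PBS, and all genes tested one of −0.02 and −0.01. The study chose Igfbp2 from the top astrocyte-enriched DEGs of these same libraries. Its call was therefore known in advance, and the counts and medians of members include it. Neither receptor was a DEG in any comparison.

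**Figure D1:**
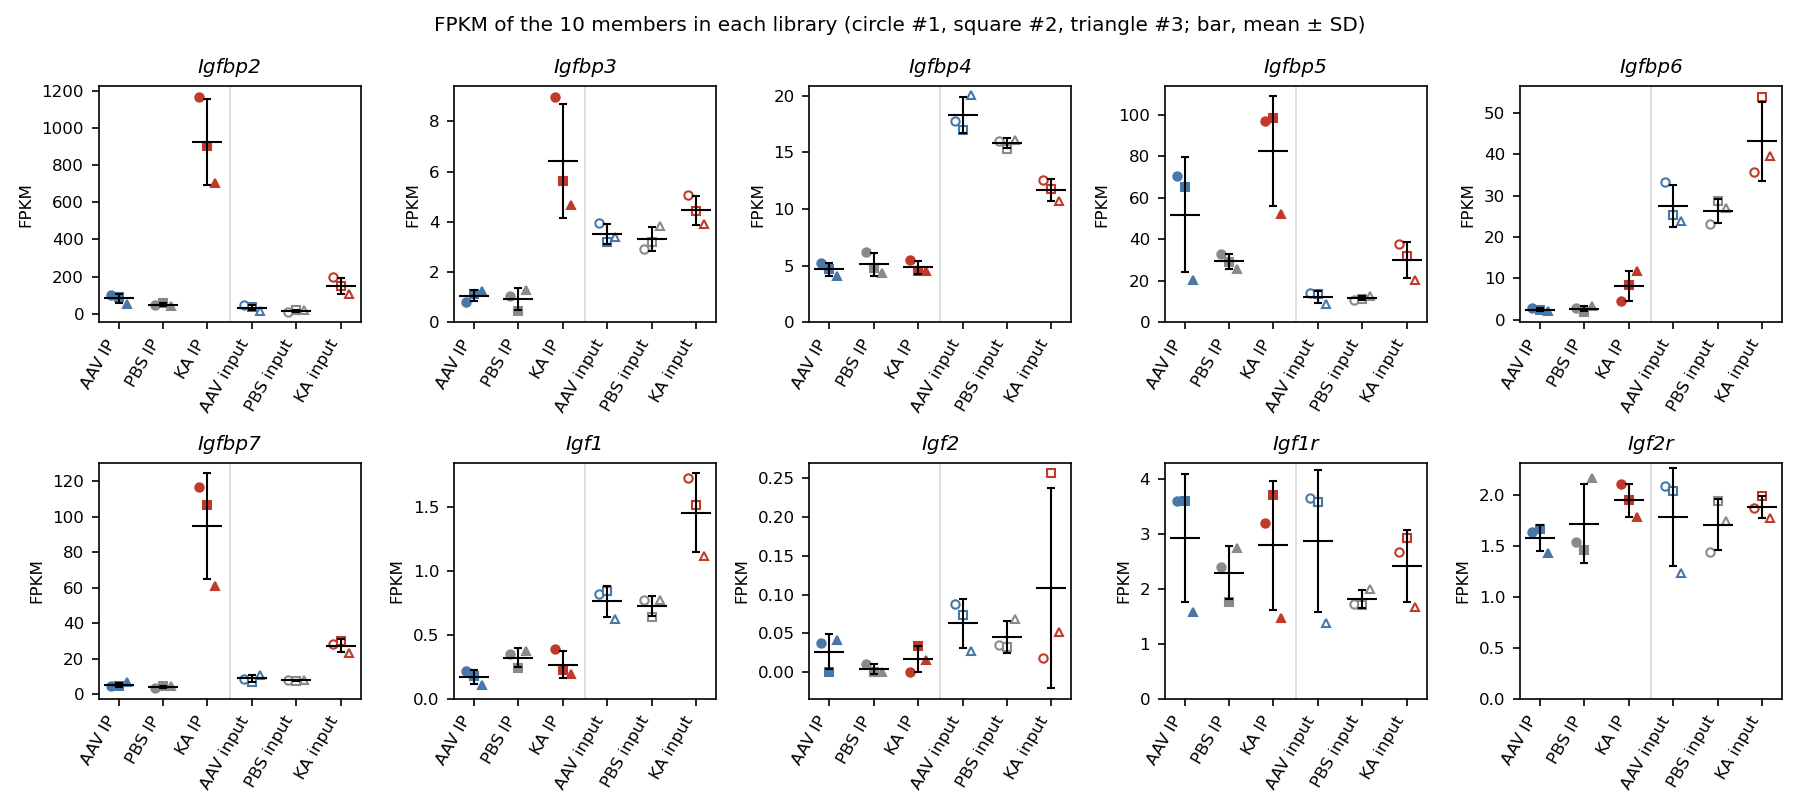
FPKM of each of the 10 genes (linear axes, one panel per gene) in the 18 libraries, by group on the x axis, IP filled and input open; bars give mean ± SD of 3 libraries. The KA IP libraries of Igfbp2 (702 to 1167 FPKM) and Igfbp7 (61.0 to 117) lie far above both controls, whereas Igf1r overlaps between groups and Igf2r differs little (1.78 to 2.10 FPKM in KA IP, 1.43 to 1.66 in AAV control IP).

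Igfbp2, a high-affinity carrier of both IGFs, was the most abundant member in IP. Its FPKM was 103, 92.6 and 55.2 in the AAV control IP libraries, 50.1, 56.7 and 44.0 in the PBS IP libraries and 1167, 903 and 702 in the KA IP libraries (#1, #2, #3). Every KA library was thus above every control library. The change was 11.5-fold against AAV control (log2 fold change 3.53, SE 0.29, adjusted p = 0.000414) and more against PBS (log2 fold change 4.17, SE 0.32, adjusted p = 1.68e-05). In run 1 alone, with 2 libraries a group, the log2 fold change against AAV control was 3.47 (adjusted p = 1.08e-07). The KA IP libraries had the same order in Igfbp2 as in the microglial and oligodendrocyte sums (2688, 1847 and 1373 FPKM for the latter), as they had in Igfbp7, and the part of these cells was not tested.

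Igfbp7, which encodes a secreted protein of vessel walls and matrix with weak IGF binding, changed more than Igfbp2 from a lower level. It was at 4.28, 4.41 and 6.65 FPKM in AAV control IP and at 3.25, 4.42 and 4.41 in PBS IP. In KA IP it was at 117, 107 and 61.0 FPKM, the lowest value being in the library of run 2. The change was 18.6-fold against AAV control (log2 fold change 4.21, SE 0.31, adjusted p = 0.000348) and 23.3-fold against PBS (4.54, SE 0.27, adjusted p = 3.19e-06). The gene overlaps Polr2b and Gm34648 on the opposite strand, and reads of these cannot be told apart without strand. Endothelial markers (8 genes), another known source of Igfbp7, summed to 7.3 to 11.4 FPKM in KA IP and to 8.3 to 24.2 in the control and PBS IP libraries. Pericyte and smooth muscle markers summed to 7.29 to 14.8 FPKM in KA IP and to 7.63 to 48.8 in the others. The part of these cells was not tested.

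Igfbp6, a carrier with preference for IGF2, was scarce in IP. It was at 2.81, 2.26 and 2.11 FPKM in AAV control IP, at 2.75, 1.89 and 3.17 in PBS IP and at 4.44, 8.46 and 11.7 in KA IP, on counts of 24 to 49 in the control and PBS libraries and 55 to 143 in the KA libraries. The KA libraries lay above all others but spread widely. The log2 fold change was 1.87 (SE 0.41, adjusted p = 0.0177) against AAV control and 1.70 (SE 0.38, adjusted p = 0.00609) against PBS. The first call was lost without KA #2 (adjusted p = 0.055), without AAV control #1 (0.0519) or without AAV control #2 (0.0648). The KA library with the most Igfbp6 also had the highest sum of neuronal markers (302 FPKM, against 227 and 259 in the other KA IP libraries), and their part in the result was not tested.

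Igfbp5, a carrier that binds the extracellular matrix, came after Igfbp2 in AAV control and PBS IP and after Igfbp2 and Igfbp7 in KA IP by mean FPKM. Its FPKM was 70.3, 65.2 and 20.3 in AAV control IP, 33.1, 29.2 and 25.8 in PBS IP and 97.2, 98.3 and 52.1 in KA IP. The libraries of run 2 were low in both groups that had one, and KA #3 lay below AAV control #1 and #2. The log2 fold change was 1.46 (SE 0.26, adjusted p = 0.00208) against PBS. Against AAV control it was 0.74 (95% interval −0.22 to 1.69, adjusted p = 0.253), and 0.86 with the replicate number as a block (adjusted p = 0.0203), still under 2-fold. In run 1 alone it was 0.59 (adjusted p = 0.00105).

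Igfbp3, which carries IGFs in serum together with the acid-labile subunit, was near the limit of 1 FPKM in the controls. It was at 0.827, 1.14 and 1.25 FPKM in AAV control IP, at 1.06, 0.448 and 1.31 in PBS IP and at 8.98, 5.61 and 4.66 in KA IP, from counts of 16 to 53 in the controls and 160 to 313 in KA. Every KA library was above every other. With the count-based filter the log2 fold change was 2.66 (SE 0.30, adjusted p = 0.000897) against AAV control and 2.95 (SE 0.32, adjusted p = 2.22e-05) against PBS, where that filter called 13.9% of 15312 and 25.9% of 15819 genes.

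Igfbp4, a carrier cleaved by pappalysin 1, did not differ beyond its spread in IP. It was at 5.25, 4.76 and 4.10 FPKM in AAV control, at 6.25, 4.80 and 4.34 in PBS and at 5.51, 4.54 and 4.50 in KA IP libraries, and the 3 groups overlapped. The log2 difference was 0.10 against AAV control (95% interval −0.28 to 0.48) and −0.09 against PBS (−0.54 to 0.37), so that a 2-fold change lay outside both intervals.

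**Figure D2:**
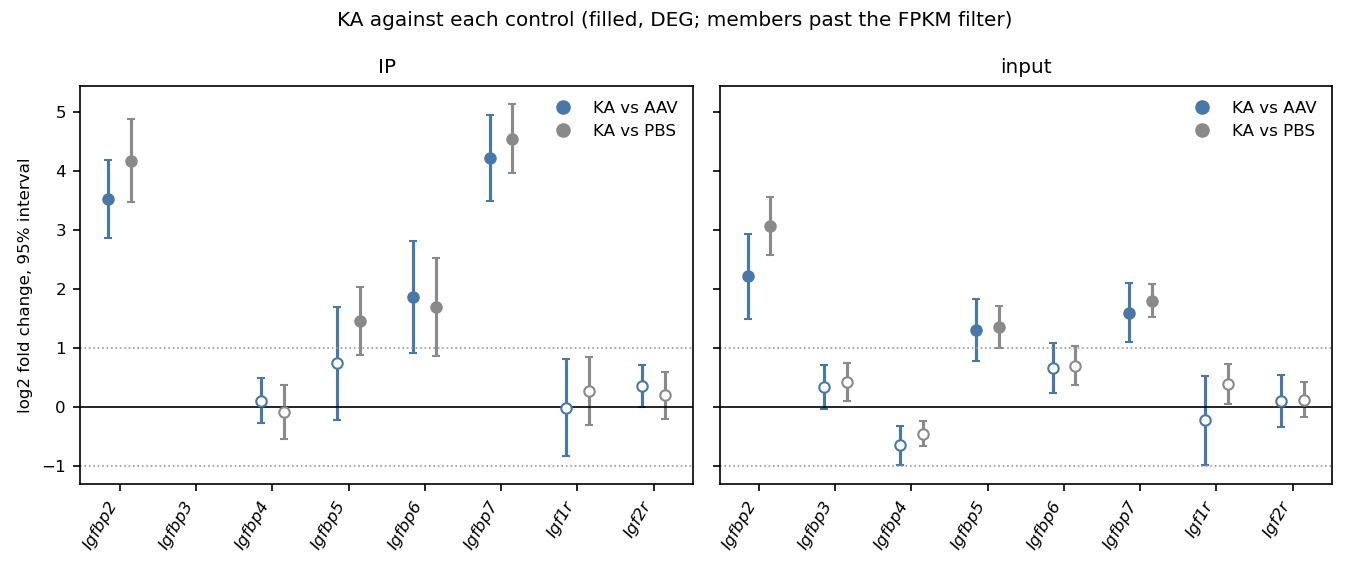
Log2 fold changes of KA against AAV control (blue) and against PBS (grey) in IP and in input, with 95% intervals from edgeR, for the members past the FPKM filter; filled points are DEGs and dotted lines mark a 2-fold change. Igfbp3 has no point in IP because it did not pass the filter there; Igfbp2 and Igfbp7 stand above the other members in IP.

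The 250 bases upstream of the RefSeq start are shown for Igfbp2, Igfbp7, Igfbp6 and Igfbp4. With the FPKM filter the first 3 were DEGs against both controls in IP, and Igfbp4 was a DEG against neither. Igfbp3, a DEG against both with the count-based filter, is not shown. The bases were read from GRCm38, which is the sequence of the mm10 build used by the authors. They are written 5′ to 3′ on the strand of the gene. Igfbp2 lies at chr1:72824230-72824479 on the plus strand (the upstream one of 2 RefSeq starts), Igfbp7 at chr5:77408046-77408295 on the minus strand, Igfbp6 at chr15:102143936-102144185 and Igfbp4 at chr11:99040994-99041243, both on the plus strand. Capitals mark matches on either strand to 5 motifs. The GC box was searched as GGGCGG. The TATA box was searched as TATAAA. The AP-1 motif was searched as TGANTCA. The STAT motif was searched as TTCNNNGAA. The E-box was searched as CACGTG. In these windows no match of one motif overlapped that of another.
Igfbp2: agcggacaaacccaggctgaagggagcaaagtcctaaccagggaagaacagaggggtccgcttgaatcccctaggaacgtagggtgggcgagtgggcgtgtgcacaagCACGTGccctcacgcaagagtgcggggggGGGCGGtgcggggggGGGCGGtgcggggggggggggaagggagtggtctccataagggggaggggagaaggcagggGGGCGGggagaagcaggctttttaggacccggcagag
Igfbp7: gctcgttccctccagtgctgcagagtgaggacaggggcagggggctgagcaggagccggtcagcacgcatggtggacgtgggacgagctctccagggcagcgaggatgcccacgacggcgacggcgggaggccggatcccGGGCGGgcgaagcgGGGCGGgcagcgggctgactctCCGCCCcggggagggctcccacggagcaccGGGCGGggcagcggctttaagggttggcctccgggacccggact
Igfbp6: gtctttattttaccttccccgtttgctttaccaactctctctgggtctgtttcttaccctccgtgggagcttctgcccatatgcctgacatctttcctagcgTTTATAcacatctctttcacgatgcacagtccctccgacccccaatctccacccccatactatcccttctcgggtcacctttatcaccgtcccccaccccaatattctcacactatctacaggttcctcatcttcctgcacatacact
Igfbp4: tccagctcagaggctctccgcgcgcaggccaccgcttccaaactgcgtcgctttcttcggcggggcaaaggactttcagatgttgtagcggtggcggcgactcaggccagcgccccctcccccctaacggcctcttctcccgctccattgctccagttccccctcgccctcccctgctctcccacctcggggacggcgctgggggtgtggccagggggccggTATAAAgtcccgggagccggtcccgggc

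The Igfbp2 window held 3 GC boxes and 1 E-box, and the Igfbp7 window 4 GC boxes. The window of the other Igfbp2 start (chr1:72825137-72825386) held 1 AP-1 match and none of the other motifs. The Igfbp6 and Igfbp4 windows held 1 match to the TATA box each and no GC box. That of Igfbp6 reads TTTATA and so lies on the opposite strand. That of Igfbp4 reads TATAAA on the strand of the gene and lies nearer the start. Of 32851 RefSeq windows of the same length, 32.7% held a GC box, 12.4% a TATA box, 6.75% an AP-1 match, 7.02% a STAT match and 6.02% an E-box. The windows of Igfbp3 and Igfbp5 held no match of any of these motifs, which says only that the letters are not in these windows. The Igf2r window held 3 GC boxes and 2 E-boxes and the Igf1r window 2 GC boxes. Neither receptor was a DEG between KA and a control, so GC boxes and E-boxes did not separate called from uncalled members. On chromosome 1, Igfbp2 (72824503 to 72852474, plus strand) and Igfbp5 (72857932 to 72874884, minus strand) face each other end to end, 5457 bases apart with no annotated gene between them.

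Neither receptor passed the test in IP with all libraries. Igf1r was at 3.60, 3.60 and 1.58 FPKM in AAV control IP, at 2.39, 1.77 and 2.73 in PBS IP and at 3.20, 3.71 and 1.47 in KA IP, with the libraries of run 2 lowest in both groups. Its log2 difference was −0.01 against AAV control (95% interval −0.83 to 0.81) and 0.27 against PBS (−0.30 to 0.85). The latter passed without KA #3 (0.56, adjusted p = 0.0365). Igf2r, the clearance receptor, was at 1.63, 1.66 and 1.43 FPKM in AAV control IP, at 1.54, 1.46 and 2.16 in PBS IP and at 2.10, 1.95 and 1.78 in KA IP. The KA libraries lay above all AAV control libraries and overlapped with PBS. Its log2 difference was 0.36 against AAV control (95% interval 5.75e-05 to 0.72, adjusted p = 0.146; with sequencing run as a covariate 0.05 to 0.67, adjusted p = 0.0644) and 0.20 against PBS (−0.21 to 0.60). Intervals that leave out a 2-fold change do not show that the groups were equal.

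The ligands were the least abundant members. Igf1 had 14 to 56 counts in each IP library (0.110 to 0.390 FPKM), and with the count-based filter its log2 difference in IP was 0.79 against AAV control (adjusted p = 0.20) and −0.10 against PBS (adjusted p = 0.848). Igf2 had 0 to 3 counts in each IP library, at or under the limit of 3 counts that a count of 0 allows, so no fold is given. A difference in Igf2 was not detectable at this depth.

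In the whole hippocampus input, 3 of the 8 tested members were DEGs against AAV control, all higher in KA (Igfbp2, Igfbp5 and Igfbp7), where 2.7% of 10809 genes were. The same 3 were DEGs against PBS, where 5.35% of 10849 genes were. In bulk tissue a change in the number of cells of a type cannot be told apart from a change in RNA per cell, and the astrocyte markers summed to 479 to 869 FPKM in control and PBS input and to 1205 to 1268 in KA input, with 3 of 10 higher DEGs against AAV control (Aqp4, Gfap and Kcnj10).

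Igfbp2 was at 45.3, 35.1 and 18.03 FPKM in AAV control input, at 11.7, 20.7 and 21.3 in PBS input and at 196, 149 and 106 in KA input. Every KA library lay above every AAV control and PBS library, and the AAV control and PBS libraries overlapped. The log2 fold change was 2.21 (SE 0.31, adjusted p = 0.00783) against AAV control and 3.06 (SE 0.22, adjusted p = 4.7e-06) against PBS. Within each group the order of the libraries was that of the choroid plexus markers, led by Ttr. These 8 markers summed to 2997, 2127 and 19.2 FPKM in AAV control input, to 21.6, 254 and 296 in PBS input and to 4500, 3849 and 2497 in KA input. KA #3 had less choroid plexus signal than AAV control #1 and more Igfbp2 (106 against 45.3 FPKM). Without AAV control #3, which lacked that signal, the log2 fold change against AAV control was 1.95 (adjusted p = 0.000777). In IP the same markers summed to 68.3, 44.0 and 12.5 FPKM in AAV control, to 4.21, 10.8 and 18.4 in PBS and to 42.9, 35.1 and 25.9 in KA, and the KA values lay within the AAV control range and above the PBS range. Ttr, the one marker tested there, was a higher DEG against PBS. The part of choroid plexus in the Igfbp2 values was not tested.

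**Figure D3:**
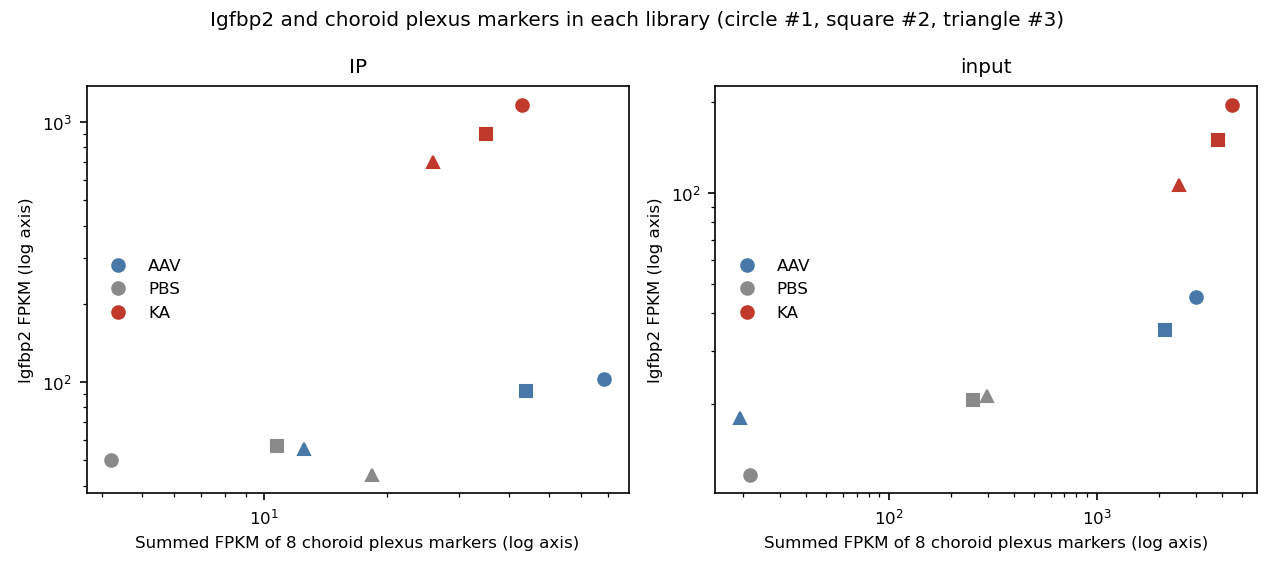
Igfbp2 FPKM against the summed FPKM of 8 choroid plexus markers in each IP library (left) and input library (right), log axes. In input, libraries with more choroid plexus signal had more Igfbp2 within each group; in IP the KA libraries (702 to 1167 FPKM) stand above AAV control libraries with the same or more choroid plexus signal.

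Igfbp7 was at 8.60, 7.02 and 10.9 FPKM in AAV control input, at 7.74, 7.30 and 8.13 in PBS input and at 28.4, 30.1 and 23.2 in KA input. The log2 fold change was 1.60 (SE 0.21, adjusted p = 0.00607) against AAV control and 1.80 (SE 0.13, adjusted p = 4.28e-06) against PBS. Igfbp5 was at 14.2, 13.8 and 8.74 FPKM in AAV control input, at 11.0, 11.2 and 12.7 in PBS input and at 37.8, 32.0 and 20.5 in KA input. Every KA library lay above the controls, with a log2 fold change of 1.30 (SE 0.23, adjusted p = 0.0186) and 1.35 (SE 0.16, adjusted p = 0.000206). The first of these was no longer called without KA #1 (adjusted p = 0.104), KA #2 (0.0873), AAV control #1 (0.0616) or AAV control #2 (0.0526).

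Igfbp4 was the one member lower in KA input than in both controls. It was at 17.8, 17.0 and 20.1 FPKM in AAV control input, at 15.98, 15.3 and 16.1 in PBS input and at 12.6, 11.8 and 10.7 in KA input. The KA libraries were below every control library, by a log2 difference of −0.65 (SE 0.15, adjusted p = 0.0474) and −0.45 (SE 0.10, adjusted p = 0.00627), under the 2-fold limit of a DEG. Without KA #1, #2 or #3 or AAV control #1 or #2, the first adjusted p lay between 0.0931 and 0.221. Neuronal markers, which were higher in input than in IP as Igfbp4 was, summed to 696 to 738 FPKM in KA input and to 898 to 1004 in the other input libraries, and their part was not tested.

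Igfbp6 was at 33.4, 25.4 and 23.9 FPKM in AAV control input, at 23.1, 28.8 and 27.1 in PBS input and at 35.8, 54.0 and 39.6 in KA input, with log2 differences of 0.65 (adjusted p = 0.0999) and 0.70 (adjusted p = 0.00608). The first passed with sequencing run as a covariate (0.66, adjusted p = 0.0247), with DESeq2 (0.0446), with no filter (0.0321), without AAV control #3 (0.0464) and in run 1 alone (0.00161), but not with the replicate block (0.0568), and stayed under 2-fold. Igfbp3 differed little, at 3.21 to 3.96, 2.93 to 3.83 and 3.92 to 5.05 FPKM (log2 difference 0.34, adjusted p = 0.329, and 0.42, adjusted p = 0.0568). Igf1 was at 0.822, 0.846 and 0.626 FPKM in AAV control input, at 0.774, 0.638 and 0.774 in PBS input and at 1.73, 1.52 and 1.12 in KA input. With the count-based filter its log2 difference was 0.92 (adjusted p = 0.0246) and 0.95 (adjusted p = 0.00243), short of a 2-fold change, where that filter called 5.2% of 15744 and 10.1% of 15737 genes as DEGs. The order of the KA libraries in Igf1 was that of the microglial markers (2293, 1978 and 1422 FPKM), whose part was not tested. Igf2 had 2 to 4 counts in the control and PBS input libraries and 1, 14 and 3 in KA input. The library with 14 counts did not have the highest choroid plexus sum, which was that of KA #1. Igf1r was at 1.37 to 3.65, 1.70 to 1.997 and 1.66 to 2.92 FPKM, and Igf2r at 1.23 to 2.08, 1.44 to 1.94 and 1.77 to 1.98, in AAV control, PBS and KA input. The log2 difference of Igf1r was −0.23 against AAV control (adjusted p = 0.786) and 0.39 against PBS (adjusted p = 0.0814). The first passed in run 1 alone (−0.37, adjusted p = 0.00268). The second passed with no filter (0.37, adjusted p = 0.0415) and without KA #3 (0.57, adjusted p = 0.000344).

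No member passed the test between PBS and AAV control, in IP (7 tested) or in input (8 tested), and 0.0% of all genes were DEGs by edgeR in IP and 0.0% in input. Of all genes, 1153 of 10667 in IP and 901 of 10924 in input had an unadjusted p under 0.05, among the members Igfbp2 in both (log2 difference −0.66, edgeR adjusted p = 0.443, and −0.83, adjusted p = 0.566). DESeq2 called 16 and 14 genes as DEGs and limma-voom 0 and 0, none of them a member. With no filter on low values edgeR called 253 and 127, no member among them, and Igfbp2 in input had a log2 difference of −0.81 (adjusted p = 0.00154). Without AAV control #3, the library of run 2, edgeR called 546 and 365 genes. In IP, Igfbp5 (log2 fold change −1.11, adjusted p = 0.0244) and Igfbp2 (−0.85, adjusted p = 0.0438) were then lower in PBS than in AAV control. In input, Igfbp2 (−1.09, adjusted p = 0.000143) and Igf1r (−0.92, adjusted p = 1.08e-05) were lower. In these inputs the choroid plexus sum was 2127 to 2997 FPKM in AAV control #1 and #2 and 21.6 to 296 in PBS.

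The ratio of IP to input FPKM within a homogenate separated the members. Those with a mean ratio of at least 2, the study's mark of astrocyte enrichment, were Igfbp2 and Igfbp5 in the AAV control and PBS groups and Igfbp2, Igfbp5 and Igfbp7 in the KA group. Igfbp4, Igfbp6 and Igf1 lay below 0.5 in every pair, and the receptors lay near 1. By edgeR, 4 of 7 members were DEGs between IP and input in AAV control (Igfbp2 and Igfbp5 higher, Igfbp4 and Igfbp6 lower; 26.4% of 9961 genes). The same 4 were DEGs in PBS (of 7 tested; 27.1% of 10401 genes). In KA 5 of 8 were DEGs, with Igfbp7 added on the higher side (12.6% of 10098 genes). The study chose Igfbp2 with enrichment in IP as a criterion, so its place in these counts was known in advance. The AAV control call was lost for Igfbp2 without AAV control #2 (adjusted p = 0.0536) and for Igfbp5 without AAV control #1 (0.0563). These edgeR fits did not pair IP and input of one homogenate. With the homogenate as a replicate block the counts of members were again 4, 4 and 5. In AAV control the adjusted p was then 1.17e-05 for Igfbp2 and 5.34e-05 for Igfbp5.

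The ratio of Igfbp2 was 2.66 ± 0.40 in AAV control, 3.03 ± 1.14 in PBS and 6.21 ± 0.36 in KA (SD, n = 3 pairs), and each KA pair (5.96, 6.05 and 6.62) lay above each control pair. That of Igfbp7 was 0.579 ± 0.0705 in AAV control and 0.523 ± 0.0939 in PBS, so that its RNA was lower in IP than in the homogenate. In KA it was 3.43 ± 0.75, with pairs at 4.11, 3.54 and 2.63. Igfbp7 was the single member that went from below 1 in every control pair to above 2 in every KA pair. Igfbp3 went from 0.31 ± 0.0875 and 0.281 ± 0.123 to 1.41 ± 0.32.

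Igfbp5 was at 4.00 ± 1.45 in AAV control, 2.56 ± 0.50 in PBS and 2.73 ± 0.30 in KA, with overlapping groups. Igfbp4 was at 0.26 ± 0.0486, 0.324 ± 0.0619 and 0.415 ± 0.0276, below 1 in each group, as was Igfbp6 (0.087 ± 0.00254, 0.10 ± 0.0303 and 0.192 ± 0.0915). Igf1 was at 0.218 ± 0.0447, 0.438 ± 0.0573 and 0.182 ± 0.0399. Igf1r was at 1.05 ± 0.0872, 1.26 ± 0.20 and 1.12 ± 0.21 and Igf2r at 0.922 ± 0.21, 1.02 ± 0.25 and 1.04 ± 0.0747, and the one call between IP and input for a receptor was a log2 difference of 0.46 for Igf1r in PBS (adjusted p = 0.0152), lost without PBS #1 (0.107) or PBS #2 (0.0776), with the count-based filter (0.0576), with no filter (0.18) and in one fit of all 18 libraries (0.22). With the homogenate as a replicate block, Igf1r also passed in KA (0.38, adjusted p = 0.0195). No ratio is given for Igf2.

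**Figure D4:**
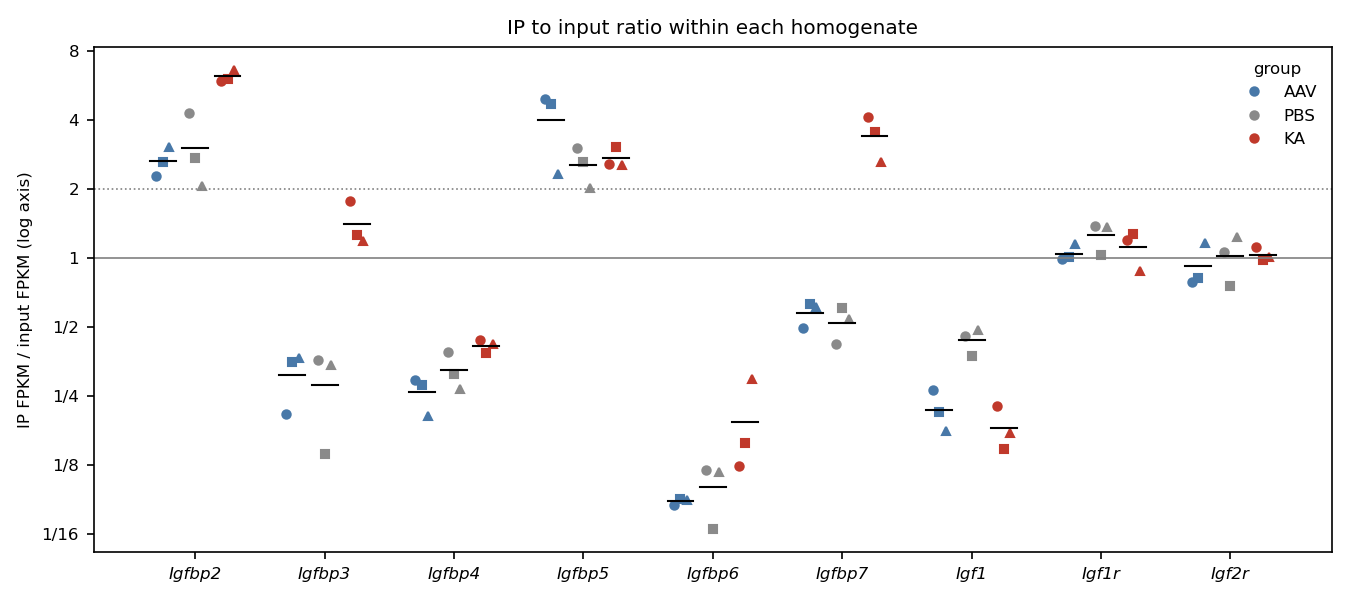
Ratio of IP to input FPKM (log axis) in each of the 3 homogenates of a group, with the group mean as a bar; the solid line is 1 and the dotted line 2. Igfbp2 and Igfbp5 lie above 2 in all 9 homogenates, and Igfbp7 moves from below 1 in the controls to above 2 in KA.

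The KA effects in IP and in input were compared in one model over the 12 libraries of 2 groups, which did not pair IP and input of one homogenate. For Igfbp7 the effect was larger in IP by a log2 difference of 2.65 (SE 0.38, adjusted p = 0.00101) with AAV control as baseline and 2.76 (SE 0.28, adjusted p = 5.75e-05) with PBS as baseline. For Igfbp2 this difference was 1.36 (SE 0.43, adjusted p = 0.0577) and 1.12 (SE 0.36, adjusted p = 0.0359). In all, 1 of 7 members was a DEG of this kind with the AAV control baseline (9.65% of 9729 genes) and 2 of 7 with the PBS baseline (14.1% of 9847 genes). With the homogenate as a replicate block there were 3 with the AAV control baseline, since Igfbp2 (1.33, adjusted p = 0.000121) and Igfbp6 (1.18, adjusted p = 0.0147) then passed. The PBS baseline call of Igfbp2 was lost without KA #1 (adjusted p = 0.0568), KA #2 (0.0991), PBS #2 (0.0503) or PBS #3 (0.129). Igfbp3, with the count-based filter, had differences of 2.35 (adjusted p = 0.00127) and 2.58 (adjusted p = 0.000155), where 6.99% of 16822 and 14% of 17130 genes were called. The difference for Igfbp5 was −0.52 (95% interval −1.64 to 0.61) and 0.11 (−0.57 to 0.80).

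The summed FPKM of the 6 binding proteins was 149 ± 51.8 in AAV control IP, 92.3 ± 8.1 in PBS IP and 1121 ± 282 in KA IP (SD, n = 3). Igfbp2 made up 57.0% ± 4.0 and 54.4% ± 3.3 of the sum in the controls and 82.5% ± 2.1 in KA. The share of Igfbp5 was 32.9% ± 8.9, 31.8% ± 2.3 and 7.3% ± 1.3. Igfbp7 went from 4.1% ± 2.9 and 4.4% ± 0.98 to 8.37% ± 1.1. In input the sum was 103 ± 19.2, 82.7 ± 9.06 and 267 ± 57.3 FPKM. There Igfbp6 (26.7% and 31.9%), Igfbp4 (18.3% and 19.3%) and Igfbp2 (30.8% and 21.3%) shared the sum in the controls, and Igfbp2 took 55.7% in KA.

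**Figure D5:**
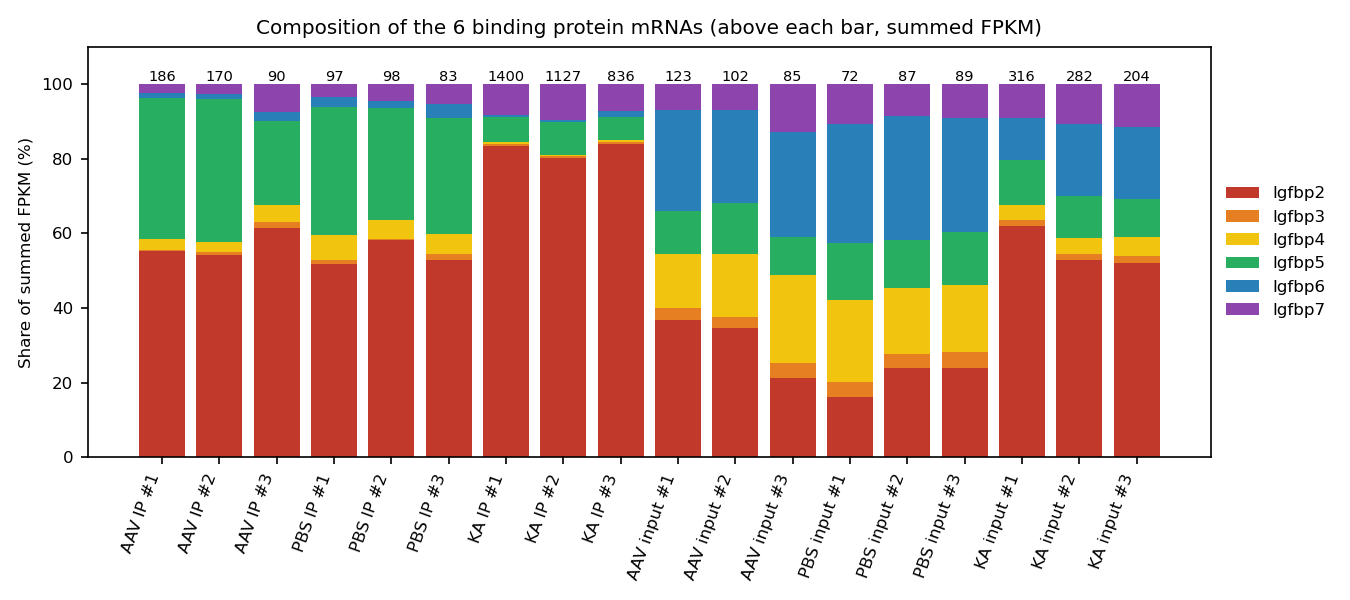
Share (%) of each of the 6 binding proteins in their summed FPKM in every library, with the sum in FPKM above each bar. Igfbp2 takes 80.2 to 84.0% in the KA IP libraries and 51.9 to 61.6% in the other IP libraries; Igfbp4 and Igfbp6 take a visible share in input and little in IP.

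Of 63 other genes of the pathway in 6 lists, 34 passed the filter in IP. Against AAV control 2 were higher and 3 lower DEGs, and against PBS 4 and 4, where 11.6% and 17.4% of all genes were DEGs, with median log2 fold changes of −0.11 and −0.13 over the 34. Some astrocyte markers were also lower in KA IP, and their part in the lower values of pathway genes was not tested. In input 2 of 35 were DEGs against AAV control (Ctsd and Eif4ebp1) and 4 against PBS (Itgav and Itgb1 in addition), all higher. Of all genes in input, 2.7% of 10809 and 5.35% of 10849 were DEGs in these comparisons. Eif4ebp1 and Itgb1 are named after their values were seen. Among the proteases of binding proteins and their inhibitors (3 of 11 tested), Ctsd, the lysosomal aspartic protease cathepsin D, was higher, at 71.1 to 96.2 FPKM in AAV control IP and 718 to 860 in KA IP (log2 fold change 3.32, SE 0.25, adjusted p = 0.000348; 3.42 against PBS, adjusted p = 2.52e-05). It was also higher in input (3.62, adjusted p = 0.00064, and 3.54, adjusted p = 1.31e-07). So were 8 of 8 tested microglial markers, whose part was not tested. Htra1, a secreted serine protease abundant in astrocytes, fell from 293 ± 32.1 FPKM to 117 ± 27.1 in IP (−1.28, adjusted p = 0.00649; −1.05 against PBS, adjusted p = 0.022).

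Among insulin-type receptors and adaptors (7 of 15 tested), Irs2, the docking protein that links IGF1R and the insulin receptor to PI3K, went from 5.53 ± 0.77 FPKM in AAV control IP to 12.8 ± 1.4 in KA IP (1.24, SE 0.19, adjusted p = 0.00429; 1.13 against PBS, adjusted p = 0.00169). The adaptor Grb2 was a DEG against PBS alone (1.12, adjusted p = 0.000953). In input none of 8 tested genes of this list was a DEG. Among 21 tested genes of the PI3K-AKT-mTOR and FoxO list, Akt2, one of the AKT kinases, fell from 31.0 ± 9.6 to 8.29 ± 1.4 FPKM in IP (−1.84, SE 0.23, adjusted p = 0.00203; −1.75 against PBS, adjusted p = 0.000497), and Tsc1, an inhibitor of mTORC1, fell against PBS alone (−1.04, adjusted p = 0.00528). These 21 genes had medians of −0.31 and −0.28 (log2). Among cell surface partners described for Igfbp2 (3 of 5 tested), the receptor phosphatase Ptprz1 fell from 30.6 ± 9.4 to 10.4 ± 1.9 FPKM (−1.49, SE 0.24, adjusted p = 0.00523; −1.32 against PBS, adjusted p = 0.00199). The integrin subunit Itgav was higher than in PBS (1.14, adjusted p = 0.00405), and was no DEG against AAV control. None of the 5 IGF carriers and related ligands and none of the 5 genes of the Igf2 mRNA binding and imprinting list passed the filter.

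The genes whose log2(FPKM + 1) followed each member most closely over the 18 libraries, among 15731 genes, are given as a description, since the libraries share groups, IP or input origin and runs. For Igfbp2 these were Serpinf2 (Pearson r 0.979), Cd44 (0.978) and Prss23 (0.976), and over the 9 IP libraries Serpinf2 (0.996), Mrps6 (0.995) and Skp1a (0.994). Igfbp7 was most like Hspb1 (0.991), Hpgd (0.98) and Cela1 (0.98), Igfbp3 like Lingo3 (0.977), Stmn4 (0.972) and Junb (0.966), and Igfbp5 like Trp53inp2 (0.985), Taf13 (0.98) and Lrig1 (0.972). Igfbp6 was most like Tmsb10 (0.982), Ap1s1 (0.98) and C1ql3 (0.978) and Igfbp4 like Pou3f1 (0.98), Agap3 (0.976) and Carmil2 (0.9753). Igf1 was most like Lrrc3 (0.956), Ltc4s (0.954) and C1qa (0.951), Igf1r like Senp6 (0.967), Slc33a1 (0.952) and Sec63 (0.946), and Igf2r like Srsf6 (0.844), Pgap1 (0.81) and Pprc1 (0.80). Within the family, Igfbp2 and Igfbp7 had r = 0.973 over the 9 IP libraries and 0.818 over all 18, and Igfbp2 and Igfbp4 0.03 and −0.57.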

How the data were processed

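RNA-seq of IP and input libraries (NEBNext Ultra II) was mapped by the authors to mm10 with STAR. They deposited whole-number counts per gene symbol without normalization, and FPKM computed by the authors; both were used as deposited. The submitters' processing notes list featureCounts and edgeR; counting settings, annotation release and strandedness are not given in the sources used here. Counts were tested in R 4.3.3 with edgeR 4.0.16 (TMM, quasi-likelihood test, FPKM above 1 in all compared libraries, Benjamini-Hochberg adjustment over all genes tested; SE from the fold change and F statistic). DESeq2 1.42.0, limma-voom (limma 3.58.1), other filters and size factors, a replicate block, sequencing run and each library left out were alternatives. In comparisons that used both IP and input, the IP and input libraries of a homogenate were left out together. The fits were tested on simulated data. Ratios used FPKM of IP and input of one homogenate. Locations are from GENCODE vM21 and upstream sequences from RefSeq, both on GRCm38; all 10 members matched.

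The members, lists and tests were chosen with earlier results of these data known. Named are all members, and other pathway genes that were DEGs between KA and a control in IP. The 3 most similar genes were taken among those with FPKM above 1 in at least 3 libraries. IP and input libraries of the same number come from one homogenate. Residuals after removal of group means correlated at 0.356 to 0.553 between same-numbered KA and AAV control IP libraries and at 0.368 to 0.564 in input. KA input #2 matched AAV control input #1 best. These numbers follow the sequencing runs, so a pairing of pools cannot be told apart from a shared run. Between same-numbered KA and PBS IP libraries the residuals correlated at −0.314 to 0.107. No replicates were duplicates: their differences were at least 4.48 times the variance of counting noise. The 95% intervals come from the edgeR fits and include the spread between pools; limits from counts of 0 cover counting error only.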

Additional observations from a re-analysis of the deposited data

Results flagged for a closer look

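For 3 of the members past the FPKM filter the change with KA was not the same in IP as in input, by edgeR's interaction test with either baseline. The limit here was an adjusted p under 0.05 with no limit on the fold. With AAV control as baseline 2 of 7 members passed it, where 1291 of all 9729 genes did. With PBS as baseline 2 of 7 members passed, where 2460 of 9847 genes did. For Igfbp7 the change with KA was larger in IP by 2.65 (log2) with AAV control as baseline and by 2.76 with PBS as baseline. For Igfbp2 it was larger in IP by 1.12 with PBS as baseline. For Igfbp4, which was lower in KA input and level in IP, the difference was 0.80 (log2, adjusted p = 0.0165) with AAV control as baseline, under 2-fold, and 0.37 (adjusted p = 0.265) with PBS as baseline; without KA #1, #2 or #3 or AAV control #1 or #2 the first adjusted p lay between 0.0515 and 0.0941. Igfbp3, which in IP passed only the count-based filter, and Igfbp6, with the homogenate as a block and AAV control as baseline, passed this test too.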

How the results depend on the processing

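The number of members called as DEGs stayed within 1.5 times in 138 combinations of comparison and alternative, was larger in 12 and smaller in 2, and no called fold change turned its direction. For the difference of KA effects with AAV control as baseline (1 member), the count was 2 with filterByExpr and 4 with no filter. It was 2 with DESeq2, 3 with the replicate block, 3 with sequencing run as covariate and 1 to 2 with each homogenate left out. With PBS as baseline (2 members) it was 4 with filterByExpr and 4 with no filter, and 1 to 2 with each homogenate left out. For PBS against AAV control the count of 0 became 1 in IP and 1 in input without AAV control #3. The causes were not tested. The replicate block moved no other count by over 1.5 times; it brought Igfbp7 in AAV control IP against input past the threshold (−0.63, adjusted p = 0.0137), and Igfbp6 in the difference with PBS as baseline (0.93, adjusted p = 0.0359). PBS numbers share only a number with those of the other groups. Ratios of IP to input from TMM CPM moved upward by over 1 SD for 10, 8 of them in KA (Igfbp2 to 7.74, Igfbp7 to 4.24). Igfbp4 and Igfbp6 in input against PBS lost their adjusted p in one fit of all 18 libraries (0.0947 and 0.098), as did Igfbp7 in PBS IP against input without PBS #1 (0.0837) and Igfbp3 in KA IP against input without KA #1 (0.156) or KA #2 (0.131). Restriction to run 1, chosen after seeing the data, kept the 3 members called in IP and the 3 in input. Depth limits Igf2, Igf1 and Igfbp3.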

Other observations

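Pappalysin 1 (Pappa), the metalloprotease that cleaves IGFBP4 and IGFBP5, was below the FPKM filter and was chosen after its values were seen, so they are given with no test. It was at 0.0293, 0.0664 and 0.092 FPKM in AAV control IP, at 0.0792, 0.111 and 0.121 in PBS IP and at 0.823, 0.644 and 1.001 in KA IP, with at most 13, 14 and 121 counts in a library. In input it was at 0.0568 to 0.0665, 0.0421 to 0.108 and 0.469 to 0.619 FPKM. Its paralog Pappa2 was at no more than 0.166 FPKM in any IP library. Of the stanniocalcins, which inhibit pappalysins, Stc2 was at 0.146, 0.323 and 0.302 FPKM in AAV control IP, at 0.145, 0.186 and 0.313 in PBS IP and at 1.16, 0.742 and 1.97 in KA IP. Stc1 was at 0.206, 0.249 and 0.112 FPKM in AAV control IP, at 0.208, 0.167 and 0.318 in PBS IP and at 0.0642, 0.0229 and 0.174 in KA IP, on at most 14 counts in a library.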
